A study of Homo sapiens with 12 samples.

Results

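Integrin subunits were followed as a list of 10 gene symbols: the alpha subunits ITGA2, ITGA3, ITGA5, ITGA6 and ITGAV and the beta subunits ITGB1, ITGB2, ITGB3, ITGB4 and ITGB5. Members were taken by symbol and matched to the Ensembl IDs of the deposited table, with no threshold on any measured value. All 10 were found among its 60649 gene IDs, and all 10 were among the 17576 genes with enough reads to be tested. RNA sequencing was done on MDA-MB-231, a human breast cancer cell line that lacks hormone receptors and has mesenchymal character, in 4 groups of 3 libraries. SIRT1 KD cells carried a short hairpin RNA (shRNA) against SIRT1, an NAD-dependent deacetylase. IGF2BP2 KD cells carried an shRNA against IGF2BP2, an RNA-binding protein that stabilises many transcripts. Double KD cells carried both, and Control cells carried a sham-targeting shRNA. HEK-293T, a kidney line, packaged the lentivirus, which was added with Polybrene at 8 µg/mL, and cells of the stable lines were kept in puromycin at 2.0 µg/mL. The sources used here give neither the hairpin sequences nor the number of hairpins or clones per target. They do not say whether the 3 runs of a group were separate infections, and the p-values below rest on the spread among the 12 libraries, which may be technical.

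Integrins are receptors made of an alpha and a beta chain that bind matrix proteins outside the cell and the actin or keratin skeleton inside it. The pair sets the ligand: ITGA2 with ITGB1 binds collagen, ITGA5 with ITGB1 binds fibronectin, ITGA3 with ITGB1 and ITGA6 with ITGB1 or ITGB4 bind laminin, and ITGAV pairs with ITGB1, ITGB3 or ITGB5 to bind vitronectin and other ligands. ITGB2 is the beta chain of leukocyte integrins. In breast cancer cells integrins carry adhesion, migration and survival signals.

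The targeted transcripts were lower in the cells meant to lack them. SIRT1 was at 527 ± 27.5 normalised counts in SIRT1 KD and 404 ± 28.7 in Double KD cells, against 834 ± 32.7 in Control cells (SD, n = 3 in each group here and below). IGF2BP2 was at 762 ± 69.6 in IGF2BP2 KD and 864 ± 139.8 in Double KD cells, against 3075 ± 44.5 in Control cells. IGF2BP2 was higher in SIRT1 KD cells, at 3757 ± 35.4 (log2 fold change 0.29, adjusted p = 0.0274). SIRT1 was at 728 ± 35.8 in IGF2BP2 KD cells, with every library below Control (log2 fold change -0.20, adjusted p = 0.102). Double KD cells had less SIRT1 than SIRT1 KD cells (log2 fold change -0.38, adjusted p = 0.00157). A normalised count is the number of reads on a gene divided by a size factor for its library. Between 19522606 and 22509142 reads were assigned to genes in 11 libraries and 15243152 in Double KD replicate 2. That library also stood apart in its values, with an SD of the log2 difference to its partners of 0.334 against 0.0981 to 0.213 in the others, and a mitochondrial share of reads of 1.18% against 1.99% to 2.57%, and results that rest on it are given with and without it. Of 7 mesenchymal markers, 6 were above 1 CPM, a count scaled to library size, on average and CDH2 was not. Of 10 luminal and receptor markers, ESR1, PGR, CDH1 and FOXA1 were under 1 CPM and the others were above it. In Control cells KRT8 averaged 600 CPM, KRT19 423, KRT18 406, ERBB2 116, EPCAM 11.4 and GATA3 9.99. Also under 1 CPM were 6 of 8 fibroblast markers and 5 of 6 kidney markers of the packaging line. The exceptions in these lists were PDGFRB at 21.6, COL1A1 at 10.99 and PAX8 at 8.92 CPM in Control cells.

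Scaled by exon length, the laminin-binding chains and their common partner were the most abundant. In Control cells ITGA3 had the highest level at 4261 ± 137 normalised counts per kb, followed by ITGB1 at 2816 ± 97.1, ITGB4 at 1918 ± 100.3 and ITGA6 at 1459 ± 28.2. ITGB5 was at 823 ± 14.6, ITGA2 at 613 ± 30.5, ITGAV at 573 ± 23.5 and ITGA5 at 382 ± 21.4. ITGB3 and ITGB2 were far lower, at 72.3 ± 13.5 and 14.6 ± 1.10 per kb. Of neighbours in this order, the libraries of ITGA2 and ITGAV overlapped and those of every other pair did not. The first 5 places were the same in all 4 groups, although in Double KD cells ITGB1 overlapped ITGB4 and ITGB5 overlapped ITGAV. ITGA2 held place 6 in Control cells, place 7 behind ITGAV in SIRT1 KD and IGF2BP2 KD cells, and place 8 behind ITGA5 in Double KD cells, where the libraries of ITGA5 and ITGA2 overlapped. ITGB2 held the last place in SIRT1 KD, IGF2BP2 KD and Control cells and stood level with ITGB3 in Double KD cells, at 44.2 ± 5.90 against 41.8 ± 2.39 per kb, with overlapping libraries. ITGB3 was scaled by all its 4394 exon bases, of which 2266 are shared on the same strand with AC068234.1, a gene listed at 0. How reads in these shared bases were assigned was not tested, so the place of ITGB3 beside ITGB2 in Double KD cells is uncertain. Summed over the 10 subunits, the level per kb was 89.7% of Control in SIRT1 KD, 88.04% in IGF2BP2 KD and 81.2% in Double KD cells.

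**Figure D1:**
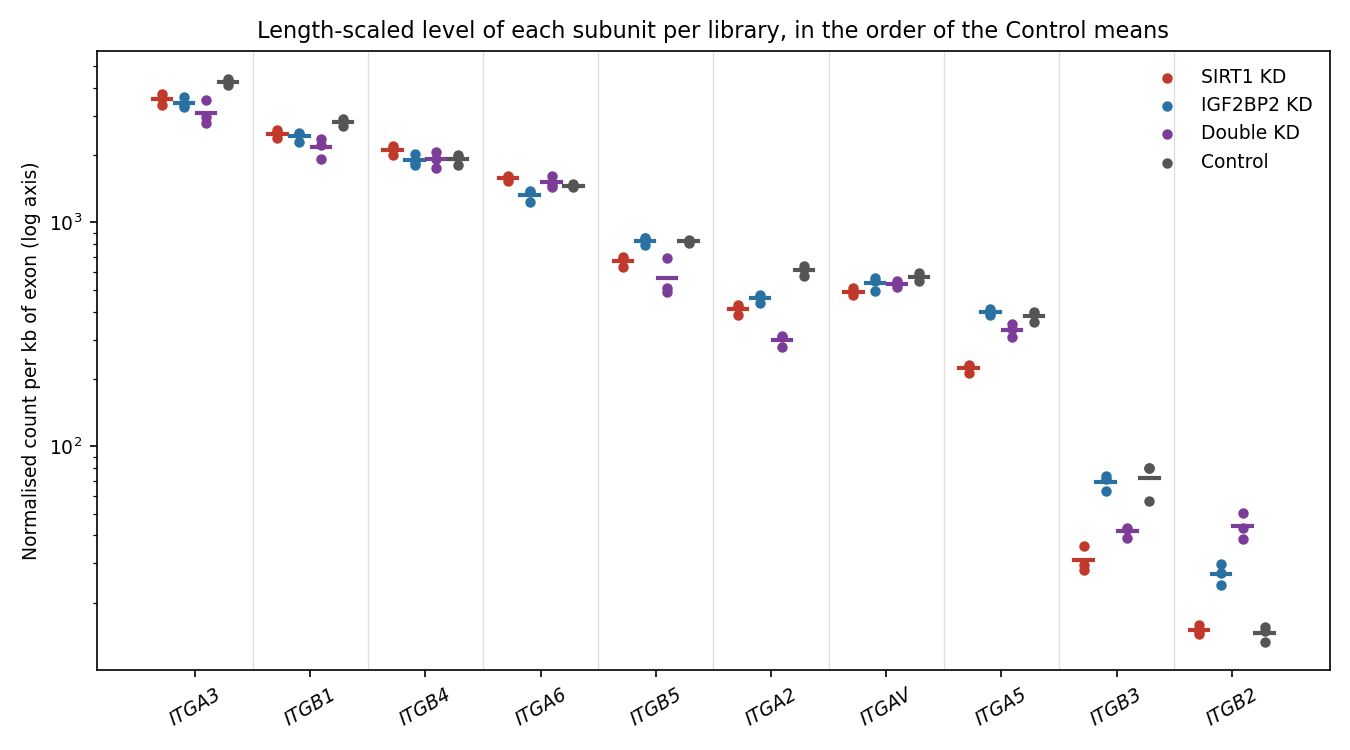
Normalised counts per kb of exon (log axis) for each subunit in every library (points) with group means (lines), SIRT1 KD, IGF2BP2 KD, Double KD and Control from left to right. ITGA3 lies highest in all groups, and ITGB2, at 44.2 ± 5.90 per kb in Double KD and 14.6 ± 1.10 in Control cells, climbs to the level of ITGB3 in Double KD cells. ITGB3 is scaled by all its exon bases, including those shared with AC068234.1.

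SIRT1 KD cells were compared with Control cells to ask which subunits change when SIRT1 is reduced. ITGB3, ITGA5 and ITGA2 fell most, to 42.9%, 58.6% and 66.99% of Control. ITGB5, ITGA3 and ITGAV fell less. No subunit rose. In bulk RNA, fewer cells with a transcript and less of it per cell cannot be told apart. In all, 6 of 10 passed the test, a Benjamini-Hochberg adjusted p under 0.05 over all 17576 genes in a limma fit. All 6 were lower. Of all genes, 28.6% passed in this comparison, and 15.7% were lower. The median log2 fold change of the subunits was -0.24, and that of all genes -0.0018.

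ITGA2 (ENSG00000164171.11, chromosome 5, 52989326 to 53094779, plus strand in GRCh38) was at 3309, 3047 and 3385 normalised counts in SIRT1 KD libraries, against 4909, 4581 and 5051 in Control libraries (log2 fold change -0.58, SE 0.07, adjusted p = 3.4e-06). ITGA5, the fibronectin receptor chain (ENSG00000161638.11, chromosome 12, 54395261 to 54419460, minus strand), was at 1739.7, 1606 and 1743 in SIRT1 KD libraries, against 3009, 2710.2 and 2970.3 in Control libraries (log2 fold change -0.77, SE 0.07, adjusted p = 1.2e-07). ITGB3, the beta chain of the main vitronectin receptor (ENSG00000259207.9, chromosome 17, 47253846 to 47311816, plus strand), was at 157, 123 and 129 in SIRT1 KD libraries, against 353, 249 and 350.1 in Control libraries (log2 fold change -1.20, SE 0.13, adjusted p = 1.7e-06). For all 3 genes every SIRT1 KD library lay below every Control library, and each call was kept in all 21 alternative analyses. ITGB3 is the one with the widest spread among its Control libraries, where replicate 2 was the lowest. Fold changes are on the log2(normalised count + 1) scale.

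The other falls were smaller and less firm. ITGA3, a laminin receptor chain (ENSG00000005884.18, chromosome 17, 50055968 to 50090481, plus strand), was at 36799.5, 32745 and 35393 in SIRT1 KD libraries, against 42897, 40281 and 42116 in Control libraries (log2 fold change -0.26, adjusted p = 0.0182). ITGAV, which pairs with several beta chains (ENSG00000138448.12, chromosome 2, 186590065 to 186680901, plus strand), was at 4042, 3892 and 4165 in SIRT1 KD libraries, against 4718, 4509 and 4894 in Control libraries (log2 fold change -0.22, adjusted p = 0.0145). ITGB5, another partner of ITGAV (ENSG00000082781.12, chromosome 3, 124761948 to 124901418, minus strand), was at 4526, 4059 and 4412 in SIRT1 KD libraries, against 5343, 5200.0 and 5377 in Control libraries (log2 fold change -0.29, adjusted p = 0.0321). The libraries of the groups did not overlap for any of the 3. All 3 calls were lost without Control replicate 1, Control replicate 3 or SIRT1 KD replicate 2, which left 3 called subunits. Their log2 fold changes without Control replicate 1 were -0.24, -0.22 and -0.29 (adjusted p = 0.0759, 0.0517 and 0.0866). In the same order they were -0.25, -0.19 and -0.28 without Control replicate 3, and -0.21, -0.20 and -0.25 without SIRT1 KD replicate 2. ITGA3 and ITGB5 were also lost with no filter on low counts and on the authors' log2 ratios, and ITGB5 without Control replicate 2 or SIRT1 KD replicate 3 (adjusted p = 0.0669 and 0.0658).

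The remaining subunits did not pass the test. ITGB1, the beta chain shared by most of these receptors (ENSG00000150093.20, chromosome 10, 32900319 to 33005792, minus strand), was at 15223, 14310.0 and 15475 in SIRT1 KD libraries, against 17081, 16279 and 17415 in Control libraries (log2 fold change -0.17, 95% interval -0.33 to -0.02, adjusted p = 0.084). ITGA6 (ENSG00000091409.16, chromosome 2, 172427354 to 172506282, plus strand) and its partner ITGB4 (ENSG00000132470.14, chromosome 17, 75721328 to 75757818, plus strand) had log2 fold changes of 0.11 (95% interval -0.02 to 0.25) and 0.14 (-0.01 to 0.29), with every SIRT1 KD library above every Control library. ITGB2 (ENSG00000160255.18, chromosome 21, 44885953 to 44931989, minus strand) was at 108, 102 and 98.96 in SIRT1 KD libraries, against 90.97, 106 and 101 in Control libraries, and the groups overlapped (log2 fold change 0.06, 95% interval -0.20 to 0.31, adjusted p = 0.783). In a fit without Double KD replicate 2 ITGB1 passed as lower (adjusted p = 0.00697) and ITGB4 as higher (adjusted p = 0.0465), and 8 subunits were called, while the number of all genes called was 7017 of 18112 in that fit. With only the 2 groups in the fit, ITGB1 also passed as lower (adjusted p = 6.7e-04). ITGA6 and ITGB4 passed as higher there (adjusted p = 0.0214 and 0.0092), where 7784 of all genes were called.

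**Figure D2:**
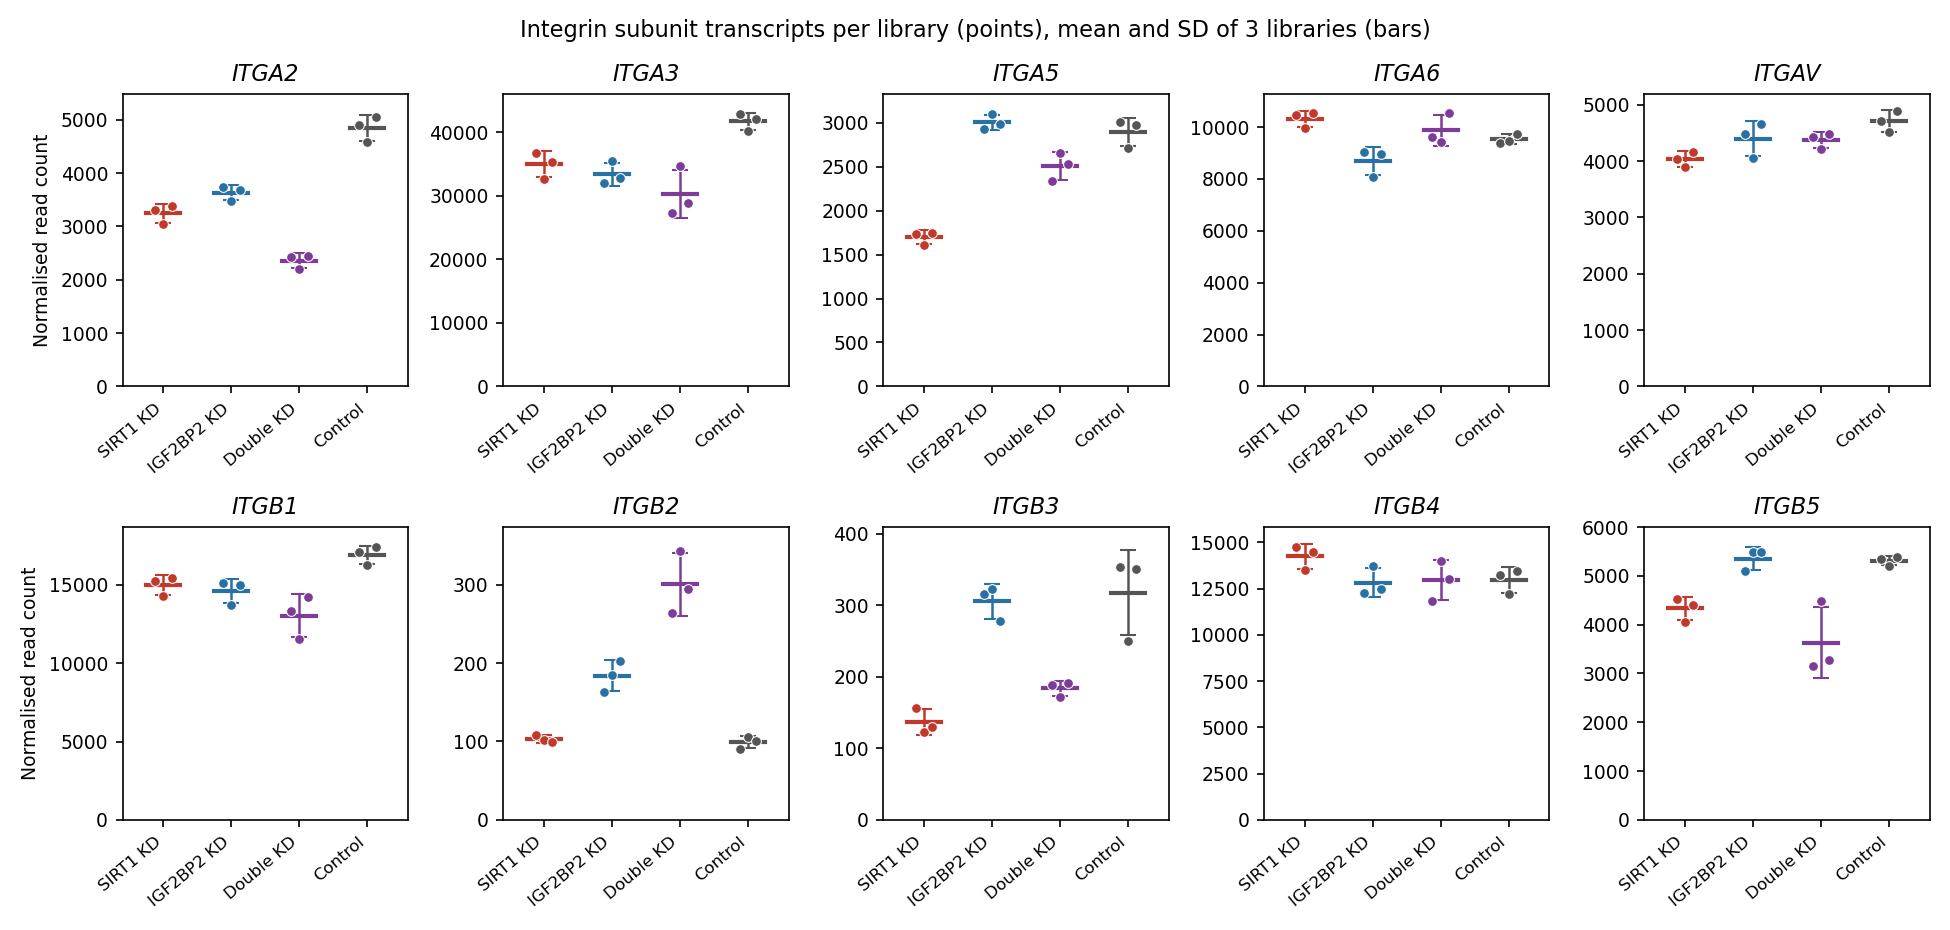
Normalised read counts of the 10 subunits in each library (points), with the mean and SD of 3 libraries, for SIRT1 KD, IGF2BP2 KD, Double KD and Control cells from left to right. ITGA2 is lowest in Double KD cells (2362 ± 142 against 4847 ± 241 in Control), ITGA5 and ITGB3 are lowest in SIRT1 KD cells, and ITGB2 is highest in Double KD cells.

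The 3 subunits with the lowest log2 fold changes in SIRT1 KD cells are the 3 of 10 whose 3′ UTR holds the bases CTCAGAT. This 7-base match had been picked on these same libraries, because genes with it were lower in this comparison, so the matches are a description of the list and no independent evidence. The match lies in the last exon of each gene in GENCODE 29 (GRCh38): in ITGA2 at chr5:53090948-53090954 on the plus strand, from base 349 of a 3′ UTR of 4180 bases, in ITGA5 at chr12:54396049-54396055 on the minus strand, from base 238 of 1032, and in ITGB3 at chr17:47310220-47310226 on the plus strand, from base 16 of 1612. Each is shown 5′ to 3′ on the transcribed strand with 10 bases on either side and the match in capitals, so that the flanks can be compared, as the windows chr5:53090938-53090964, chr12:54396039-54396065 and chr17:47310210-47310236.
ITGA2: atatgatactCTCAGATtttaaggggg
ITGA5: gatgggggaaCTCAGATccagggacag
ITGB3: agcagtcatcCTCAGATcattatcagc

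The sense strand of the longest annotated 3′ UTR of each gene was searched for CTCAGAT and for the overlapping TCAGATA, which none of the 10 subunits holds. Of 13121 tested genes with a searched 3′ UTR, 13.2% hold CTCAGAT. Their median log2 fold change in SIRT1 KD against Control cells was -0.18, and that of genes without it 0.01. Double KD against IGF2BP2 KD cells sets the SIRT1 hairpin against its absence in libraries that this comparison does not use, and there the medians were -0.13 and 0.05. In that comparison ITGB3 and ITGA2 had the 2 lowest values among the subunits (-0.73 and -0.62), next to ITGB5 (-0.58), which does not hold the match, and ITGA5 followed (-0.26). In IGF2BP2 KD against Control cells the medians with and without the match were 0.0019 and -0.02. Genes with and without TCAGATA had medians of -0.17 and 0.01 in SIRT1 KD against Control cells. In Double KD against IGF2BP2 KD cells these were -0.13 and 0.04. The medians were not adjusted for the length of the 3′ UTR. Other genes hold CTCAGAT too, among them ITGB8, THBS1, CCN2, ACTN4, CD82, VPS26A and RAB11FIP1, which were lower in SIRT1 KD cells. ITGA10 holds it and did not pass there. Of all searched genes with it, 40.5% were called lower in SIRT1 KD against Control cells, and of those without it 15.7%. Whether CTCAGAT has a part in the lower levels was not tested.

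**Figure D3:**
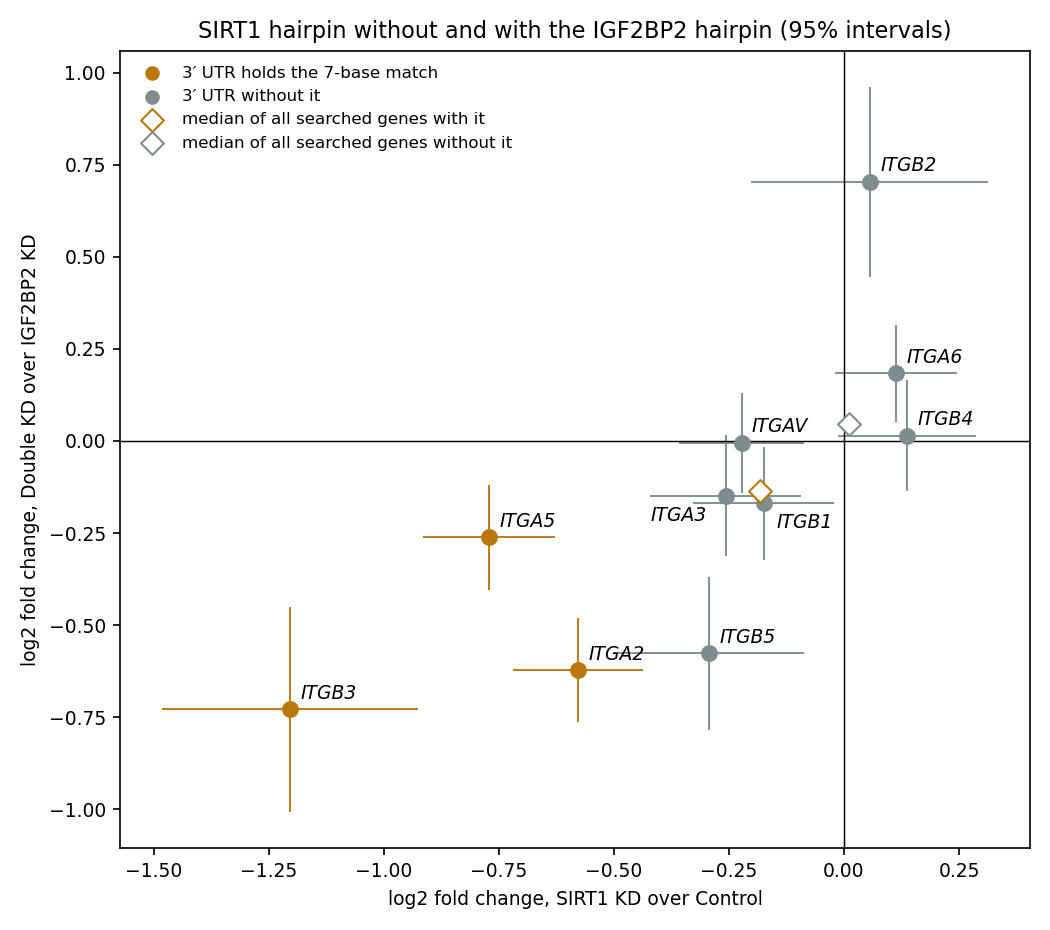
Log2 fold change of each subunit in SIRT1 KD over Control cells (x axis) and in Double KD over IGF2BP2 KD cells (y axis), which share no library, with 95% intervals. Subunits whose 3′ UTR holds the match (orange) lie at -0.58 or lower on the x axis, and open diamonds mark the medians of all searched genes with and without it.

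IGF2BP2 KD cells were compared with Control cells to ask which subunits change when IGF2BP2 is reduced. ITGB2 rose to 185% of Control, ITGA2 fell to 74.9% and ITGA3 to 80.05%. These 3 of 10 passed the test, 1 higher and 2 lower, against 16.3% of all genes, with 9.39% of all genes lower. The median log2 fold change of the subunits was -0.07, and that of all genes -0.0037.

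ITGB2 was at 163, 185 and 203 normalised counts in IGF2BP2 KD libraries, against 90.97, 106 and 101 in Control libraries (log2 fold change 0.88, SE 0.12, adjusted p = 6.4e-05). ITGA2 was at 3747, 3469.9 and 3680.0 in IGF2BP2 KD libraries, against 4909, 4581 and 5051 in Control libraries (log2 fold change -0.42, SE 0.07, adjusted p = 2.9e-04). ITGA3 was at 31994, 35486 and 32813 in IGF2BP2 KD libraries, against 42897, 40281 and 42116 in Control libraries (log2 fold change -0.32, SE 0.08, adjusted p = 0.00758). No IGF2BP2 KD library overlapped a Control library for these genes. The call of ITGA3 was lost on the authors' log2 ratios (adjusted p = 0.0701) and kept in the other 20 alternatives. ITGB1 was at 15107, 13739.9 and 15001 in IGF2BP2 KD libraries, all below the 17081, 16279 and 17415 of Control libraries, and narrowly missed the threshold (log2 fold change -0.21, adjusted p = 0.0546). It passed in 7 of 21 alternatives, among them those without Double KD replicate 1, 2 or 3 (adjusted p = 0.0424, 0.00166 and 0.0344).

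The other 6 subunits did not pass. ITGA5 was at 2923, 3099 and 2991 in IGF2BP2 KD libraries, against 3009, 2710.2 and 2970.3 in Control libraries, with overlap (log2 fold change 0.05, 95% interval -0.09 to 0.20, adjusted p = 0.665). ITGB3 had a log2 fold change of -0.04 (95% interval -0.32 to 0.24) and ITGB5 of 0.01 (-0.19 to 0.22), again with overlap. ITGA6 was at 9029, 8089 and 8956 in IGF2BP2 KD libraries, against 9389, 9473 and 9742 in Control libraries, with all 3 below (log2 fold change -0.14, 95% interval -0.27 to -0.0026, adjusted p = 0.165). ITGAV and ITGB4 overlapped, with log2 fold changes of -0.10 (-0.24 to 0.04) and -0.02 (-0.17 to 0.13).

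Double KD cells were compared with Control cells to ask what changes when both are reduced. ITGB2 rose to 303% of Control, ITGA2 fell to 48.7%, ITGB3 to 57.8% and ITGB5 to 68.5%. ITGA3, ITGB1 and ITGA5 fell less. In all, 7 of 10 passed, 1 higher and 6 lower, against 34.2% of all genes, with 17.5% of all genes lower. The median log2 fold change of the subunits was -0.29, and that of all genes 0.01.

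ITGA2 was at 2432, 2199 and 2455 normalised counts in Double KD libraries, against 4909, 4581 and 5051 in Control libraries (log2 fold change -1.04, SE 0.07, adjusted p = 1.7e-09). ITGB2 was at 263, 343 and 295 in Double KD libraries, against 90.97, 106 and 101 in Control libraries (log2 fold change 1.58, SE 0.12, adjusted p = 1.5e-08). ITGB3 was at 189, 172 and 191 in Double KD libraries, against 353, 249 and 350.1 in Control libraries (log2 fold change -0.77, SE 0.13, adjusted p = 1.7e-04). For each of the 3 the groups were apart, and the 3 calls were kept in all 21 alternatives. ITGB5 was at 3146, 4476 and 3279 in Double KD libraries, against 5343, 5200.0 and 5377 in Control libraries (log2 fold change -0.56, SE 0.10, adjusted p = 2.2e-04). Its Double KD replicate 2 lay between the other Double KD libraries and Control, and without that library the log2 fold change was -0.72 (adjusted p = 3.4e-14). ITGA3 was at 27386, 34641 and 28849 in Double KD libraries, against 42897, 40281 and 42116 in Control libraries (log2 fold change -0.47, adjusted p = 1.2e-04), and here too replicate 2 was nearest to Control.

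ITGB1 was at 13362, 11518 and 14220.2 in Double KD libraries, against 17081, 16279 and 17415 in Control libraries (log2 fold change -0.38, adjusted p = 4.7e-04). In contrast to ITGB5 and ITGA3, Double KD replicate 2 was the lowest for this gene. ITGA5 was at 2338, 2661 and 2527 in Double KD libraries, against 3009, 2710.2 and 2970.3 in Control libraries (log2 fold change -0.21, adjusted p = 0.0235). The highest of these lies just under the lowest Control library, and the call was lost without Control replicate 1 or 3 or Double KD replicate 1 (log2 fold change -0.18, -0.19 and -0.16, adjusted p = 0.109, 0.0961 and 0.0886). It was also lost with only the 2 groups in the fit (adjusted p = 0.0817) and on the authors' log2 ratios (0.103). ITGA6, ITGB4 and ITGAV did not pass, with log2 fold changes of 0.05 (95% interval -0.08 to 0.18), -0.003 (-0.15 to 0.15) and -0.11 (-0.24 to 0.03). Double KD libraries overlapped Control libraries for ITGA6 and ITGB4 and lay below them for ITGAV. For ITGB4 the sign was not stable, since leaving out single libraries gave -0.06 to 0.06.

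**Figure D4:**
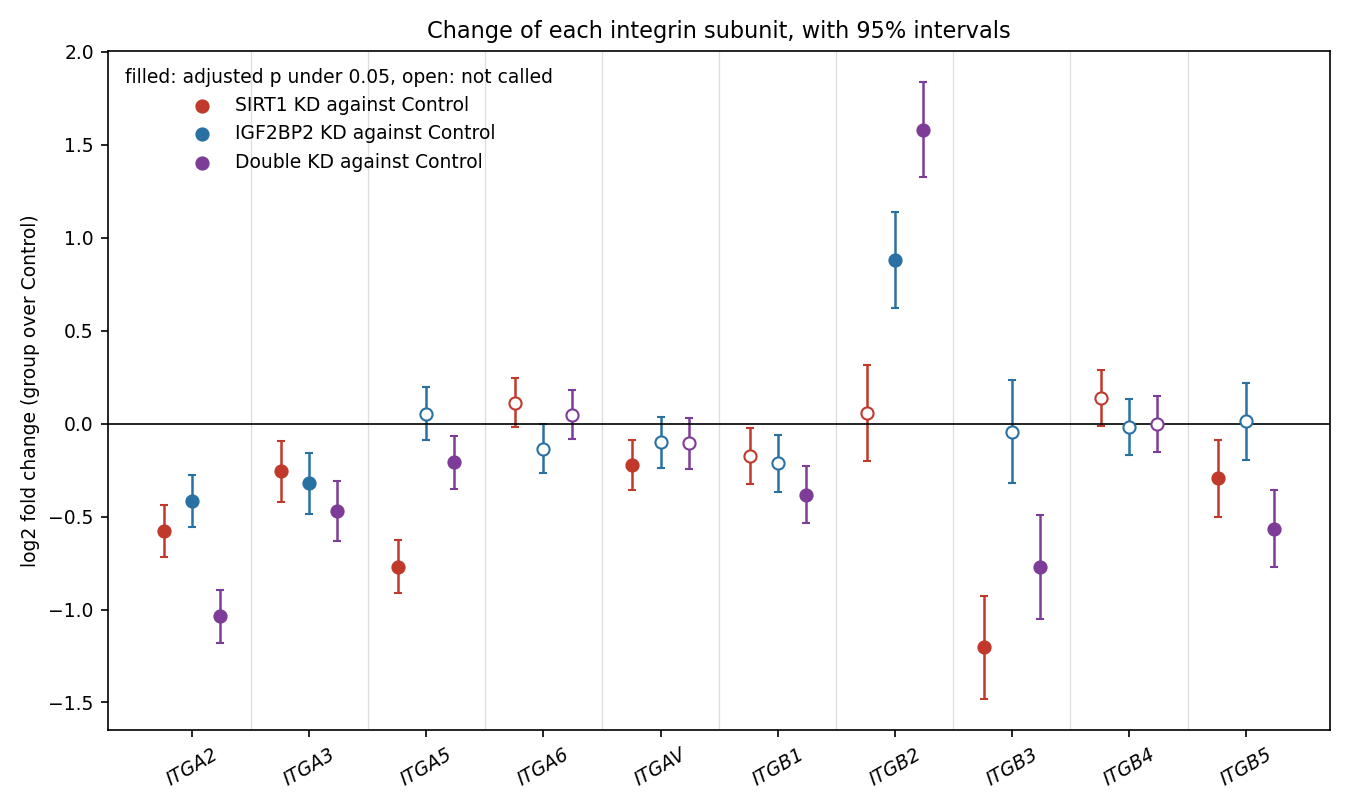
Log2 fold change of each subunit in SIRT1 KD, IGF2BP2 KD and Double KD over Control cells, with 95% intervals from the limma fit; filled points passed the test and open points did not. ITGB2 rises to 1.58 in Double KD cells, ITGA2 falls in all 3 comparisons, and ITGA6 and ITGB4 stay near 0.

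ITGB2 is a marker of leukocytes, and markers of immune cells were followed beside it. Of 10 immune markers, 9 averaged under 1 CPM, among them the leukocyte antigen PTPRC, and TYROBP had no read in any library. The macrophage receptor CSF1R was the only one above 1 CPM. Summed over the 10 markers, the level was 4.40 to 4.94 CPM in SIRT1 KD, 9.29 to 9.63 CPM in IGF2BP2 KD and 5.35 to 6.17 CPM in Double KD libraries, against 7.32 to 8.57 CPM in Control libraries. Most of each sum was CSF1R, so the sum mainly follows 1 gene. CSF1R averaged 3.74 CPM in SIRT1 KD, 8.26 in IGF2BP2 KD and 4.91 in Double KD cells, against 6.34 in Control cells. The part of immune cells in the ITGB2 values was not tested. The 4 alpha chains that pair with ITGB2 in leukocytes, ITGAL, ITGAM, ITGAX and ITGAD, reached at most 2.06 normalised counts in Double KD and 8.62 in Control libraries. The antisense transcript ITGB2-AS1 shares 303 exon bases with ITGB2 on the other strand and averaged 23.1 ± 7.15 normalised counts in Double KD and 9.55 ± 3.54 in Control cells (log2 fold change 1.21, adjusted p = 0.0183). The sources used here do not state whether counting used strand, and reads in the shared bases cannot be told apart. Short antisense overlaps of 42 to 203 exon bases also touch ITGA5, ITGA6, ITGAV and ITGB1, whose partners averaged at most 116 normalised counts. The gene AC068234.1 shares 2266 exon bases with ITGB3 on the same strand and is listed at 0 in all libraries.

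Double KD cells were set against each single knockdown to see how the cells with both hairpins differ from those with 1, and SIRT1 itself differed between Double KD and SIRT1 KD cells, as given above. Against SIRT1 KD cells, 3 subunits were higher and 2 lower, and 22.6% of all genes passed. ITGB2 was higher (log2 fold change 1.53, adjusted p = 8.6e-08), and so were ITGA5 (0.56, adjusted p = 9.3e-06) and ITGB3 (0.43, adjusted p = 0.0241). The last 2 are genes that had fallen in SIRT1 KD cells: ITGA5 was at 2509 ± 162 normalised counts in Double KD and 1696 ± 78.5 in SIRT1 KD cells, and ITGB3 at 184 ± 10.5 in Double KD and 136 ± 18.1 in SIRT1 KD cells, with no overlap of libraries. ITGA2 was lower by a further step (-0.46, adjusted p = 7.8e-05), and so was ITGB1 (-0.21, adjusted p = 0.0478). The call of ITGB1 was lost in 9 of 12 fits that left out a library (log2 fold change -0.24 to -0.12, adjusted p = 0.0558 to 0.164), namely without any of the Control or SIRT1 KD libraries, IGF2BP2 KD replicate 1 or 3, or Double KD replicate 2. That of ITGB3 was lost without SIRT1 KD replicate 2 or 3 or Double KD replicate 1 or 3 (0.36 to 0.41, adjusted p = 0.051 to 0.112). Both were also lost with only the 2 groups in the fit and on the authors' log2 ratios. Without Double KD replicate 2, ITGA3, ITGB4 and ITGB5 were also lower (-0.31, -0.20 and -0.43), and 7 subunits were called. The same fit called 5132 of 18112 genes. ITGB5 was at 3146, 4476 and 3279 in Double KD libraries, against 4526, 4059 and 4412 in SIRT1 KD libraries, with replicate 2 of Double KD inside the SIRT1 KD range.

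Against IGF2BP2 KD cells, 2 subunits were higher and 4 lower, and 31.6% of all genes passed. ITGB3 was at 184 ± 10.5 normalised counts in Double KD and 305 ± 23.8 in IGF2BP2 KD cells (log2 fold change -0.73, adjusted p = 3.6e-04), and ITGA2 at 2362 ± 142 in Double KD and 3632 ± 145 in IGF2BP2 KD cells (log2 fold change -0.62, adjusted p = 1.7e-06). ITGB5 and ITGA5 were lower as well (-0.58, adjusted p = 2.2e-04, and -0.26, adjusted p = 0.00633), with no overlap of libraries. ITGB2 was higher, at 300.4 ± 40.1 in Double KD and 184 ± 20.01 in IGF2BP2 KD cells (log2 fold change 0.70, adjusted p = 2.4e-04), and those 5 calls were kept in all 21 alternatives. ITGA6 was higher by a small margin (log2 fold change 0.18, adjusted p = 0.0331), and its call was lost with only the 2 groups in the fit (adjusted p = 0.151) and without Control replicate 1, IGF2BP2 KD replicate 2 or 3, or Double KD replicate 3 (0.13 to 0.21, adjusted p = 0.0503 to 0.15). ITGA3 missed the threshold (log2 fold change -0.15, adjusted p = 0.162) and passed without Double KD replicate 2 (-0.25, adjusted p = 8.1e-04). ITGB1 did the same without Double KD replicate 3 (-0.24, adjusted p = 0.0232, against -0.17 and 0.0859 with all libraries). ITGB4 and ITGAV had log2 fold changes of 0.01 (95% interval -0.14 to 0.16) and -0.01 (-0.14 to 0.13).

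The interaction asks whether the Double KD change is the sum of the single changes on the log2 scale. It was positive for ITGA5 (0.51, SE 0.10, 95% interval 0.31 to 0.71, adjusted p = 0.00974), the 1 of 10 subunits called, against 2.86% of all genes. ITGA5 was at -0.77 in SIRT1 KD, 0.05 in IGF2BP2 KD and -0.21 in Double KD cells on the log2 scale over Control. Its call was kept without each library in turn and lost on the authors' log2 ratios (adjusted p = 0.0781). ITGB2 had the largest estimate, 0.65 (95% interval 0.28 to 1.01), and did not pass (adjusted p = 0.0517). It passed without Double KD replicate 1 or 2 (0.74 and 0.55). ITGA2 was close to additive, at -0.04 (95% interval -0.24 to 0.16). Without Double KD replicate 2, 5 subunits were called: ITGA5, ITGB2, ITGB3 and ITGAV as positive (0.47, 0.55, 0.52 and 0.24) and ITGB5 as negative (-0.44, adjusted p = 1.6e-04). In that fit 1765 of 18112 genes were called, so the calls rose among all genes as well.

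Ratios within a library compare chains that stand in for each other or pair with each other. The log2 ratio of the collagen receptor chain ITGA2 over the fibronectin receptor chain ITGA5 was 0.94 ± 0.02 in SIRT1 KD, 0.27 ± 0.10 in IGF2BP2 KD and -0.09 ± 0.17 in Double KD cells, against 0.74 ± 0.03 in Control cells. Every SIRT1 KD library was above and every IGF2BP2 KD and Double KD library below the Control libraries. The ratio of the laminin receptor chains ITGA3 over ITGA6 was 1.76 ± 0.05 in SIRT1 KD, 1.94 ± 0.17 in IGF2BP2 KD and 1.61 ± 0.23 in Double KD cells, against 2.13 ± 0.05 in Control cells. SIRT1 KD and Double KD libraries lay below Control, and IGF2BP2 KD libraries overlapped it. ITGB3 over ITGB5, both partners of ITGAV, was -4.99 ± 0.13 in SIRT1 KD, -4.13 ± 0.15 in IGF2BP2 KD and -4.28 ± 0.36 in Double KD cells, against -4.08 ± 0.26 in Control cells, and only the SIRT1 KD libraries lay apart from Control. ITGB4 over its partner ITGA6 overlapped Control in all 3 groups, with differences of 0.02, 0.12 and -0.05 in SIRT1 KD, IGF2BP2 KD and Double KD cells. In each of the 6 comparisons without overlap, of 12 made, the exact two-sided permutation p was 0.1, the smallest that 3 against 3 libraries allow, so none can pass 0.05. Without Double KD replicate 2 the difference of ITGB3 over ITGB5 in Double KD cells was 0.00167, against -0.21 with it. A ratio shows unequal change of the pair and not which of them changed.

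**Figure D5:**
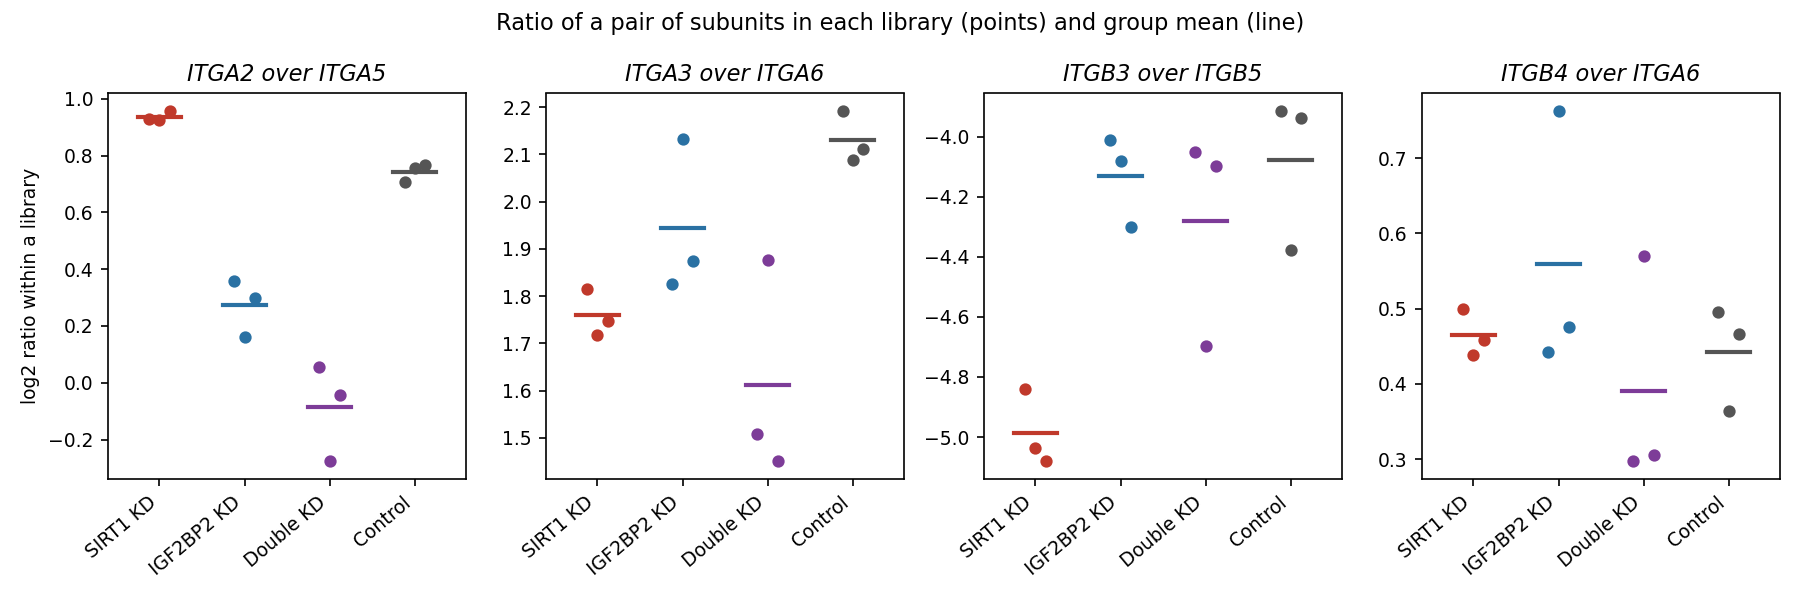
Log2 ratio of a pair of subunits in each library (points) and the group mean (lines), SIRT1 KD, IGF2BP2 KD, Double KD and Control from left to right. ITGA2 over ITGA5 is -0.09 in Double KD against 0.74 in Control cells and higher than Control in SIRT1 KD cells.

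Of 16 further integrin subunits, 8 had enough reads to be tested, and the other 8 were at 0 to 10.5 normalised counts in the 12 libraries. None rose. Of the 8 tested, 2 fell in SIRT1 KD, 0 in IGF2BP2 KD and 3 in Double KD cells. The shares of all genes called in these comparisons were 28.6%, 16.3% and 34.2%. ITGA1, a collagen receptor chain like ITGA2, fell in SIRT1 KD and Double KD cells, to 319 ± 42.4 and 348 ± 50.6, against 517 ± 45.7 in Control cells (-0.70 and -0.58 on the log2 scale, adjusted p = 1.7e-04 and 8.3e-04). ITGB8, another partner of ITGAV, fell to 64.2 ± 9.37 and 55.7 ± 8.79 in these groups, against 94.95 ± 12.98 in Control cells (-0.56 and -0.76, adjusted p = 0.0114 and 9.4e-04). The SIRT1 KD call of ITGB8 was lost without Control replicate 3 or SIRT1 KD replicate 1 (adjusted p up to 0.0766). ITGA10 fell in Double KD cells (-0.67, adjusted p = 0.00706), with -0.29 in SIRT1 KD and -0.23 in IGF2BP2 KD cells, where it did not pass. In IGF2BP2 KD cells none of the 8 passed. The E-cadherin receptor chain ITGAE had log2 fold changes of -0.23, -0.0013 and 0.01 in SIRT1 KD, IGF2BP2 KD and Double KD cells and passed in none.

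Among integrin ligands, mostly matrix proteins with a few cell-surface proteins such as ICAM1, more fell than rose. Of 32 tested ligands, 6 rose and 15 fell in SIRT1 KD, 2 rose and 11 fell in IGF2BP2 KD, and 5 rose and 15 fell in Double KD cells, with median log2 fold changes of -0.19, -0.07 and -0.17 in that order, where 28.6%, 16.3% and 34.2% of all genes were called and their medians lay between -0.0037 and 0.01. THBS1, thrombospondin, was at 12613 ± 869 normalised counts in SIRT1 KD and 12927 ± 226 in Double KD cells, against 37253 ± 1259.6 in Control cells (-1.56 and -1.53 on the log2 scale), and had -0.04 in IGF2BP2 KD cells (adjusted p = 0.73). CCN2, a matricellular ligand of ITGAV integrins, fell in all 3 groups, by 0.93, 0.68 and 1.39 in SIRT1 KD, IGF2BP2 KD and Double KD cells. FBN1, the microfibril protein fibrillin, also fell in all 3, by 0.31, 0.36 and 1.01. COL6A3, a collagen VI chain, fell in SIRT1 KD and Double KD cells, by 0.77 and 1.33, and had -0.16 in IGF2BP2 KD cells (adjusted p = 0.246). Without Double KD replicate 2, 6 ligands rose and 17 fell in SIRT1 KD, 6 and 12 in IGF2BP2 KD, and 5 and 19 in Double KD cells.

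Proteins that join integrins to actin moved in both directions. Of 25 tested adaptors and activators, 4 rose and 6 fell in SIRT1 KD, 3 rose and 5 fell in IGF2BP2 KD, and 4 rose and 7 fell in Double KD cells (median log2 fold changes -0.01, -0.03 and -0.02), where 28.6%, 16.3% and 34.2% of all genes passed. When Double KD replicate 2 was left out, 6 rose and 7 fell in SIRT1 KD, 4 and 9 in IGF2BP2 KD, and 6 and 8 in Double KD cells. TNS4 and TNS2 are tensins that bind beta chain tails. TNS4 was at 271 ± 20.9 in SIRT1 KD, 353 ± 44.5 in IGF2BP2 KD and 174 ± 22.4 in Double KD cells, against 537 ± 43.3 in Control cells, and fell in all 3 (adjusted p = 3.1e-06, 0.00105 and 4.2e-09), the IGF2BP2 KD call being lost on the authors' log2 ratios (adjusted p = 0.0703). TNS2 fell in SIRT1 KD and Double KD cells by 0.96 and 0.52 on the log2 scale. In IGF2BP2 KD cells it was higher (log2 fold change 0.25, adjusted p = 0.018), a call lost without Control replicate 1 or 2 or IGF2BP2 KD replicate 2 or 3, with no filter and on the authors' log2 ratios (0.20 to 0.26, adjusted p up to 0.09). ACTN4, an actin crosslinker, fell in SIRT1 KD and Double KD cells by 0.48 and 0.52. FERMT2, the kindlin that activates beta chains, rose in IGF2BP2 KD and Double KD cells, to 2158 ± 204 and 2340.3 ± 97.7, against 1523 ± 44.4 in Control cells (0.50 and 0.62 on the log2 scale, adjusted p = 1.2e-04 and 3.2e-06). In SIRT1 KD cells it was lower (-0.23, adjusted p = 0.0254), and that call was lost without any of the Control libraries or SIRT1 KD replicate 1 or 2 and on the authors' log2 ratios (adjusted p up to 0.121).

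Of 7 genes listed as integrin inhibitors, 2 rose and 1 fell in SIRT1 KD and 0 rose and 1 fell in IGF2BP2 KD cells. In Double KD cells 1 rose and 2 fell. The shares of all genes called in the 3 comparisons were 28.6%, 16.3% and 34.2%. Leaving out Double KD replicate 2, 2 rose and 1 fell in SIRT1 KD, 1 and 2 in IGF2BP2 KD, and 1 and 1 in Double KD cells. KANK2, which binds talin at adhesions, fell in IGF2BP2 KD and Double KD cells by 0.26 and 0.43 (adjusted p = 0.0112 and 4.7e-05), the first of these lost without IGF2BP2 KD replicate 1 or 3 (adjusted p up to 0.07). ITGB1BP1, which competes with talin for the ITGB1 tail, fell in SIRT1 KD cells by 0.34 (adjusted p = 0.013), lost without Control replicate 3 or SIRT1 KD replicate 2 and on the authors' log2 ratios (adjusted p up to 0.0657). Its values in Double KD libraries spread widely, 2217 ± 435 against 1856 ± 48.9 in Control cells. KANK1 rose in SIRT1 KD cells by 0.29 (adjusted p = 0.0165), lost without Control replicate 2 or SIRT1 KD replicate 3 and with no filter (adjusted p up to 0.072). NISCH, nischarin, which binds ITGA5, rose in Double KD cells by 0.23 (adjusted p = 0.022), lost without Control replicate 1 or 3 and with only the 2 groups in the fit (adjusted p up to 0.0808).

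Signalling proteins of focal adhesions also moved both ways: of 23 tested, 5 rose and 8 fell in SIRT1 KD, 5 rose and 3 fell in IGF2BP2 KD, and 6 rose and 7 fell in Double KD cells (medians -0.05, 0.03 and -0.01), with 28.6%, 16.3% and 34.2% of all genes called. PTK2, focal adhesion kinase, rose in all 3 groups, to 5079.7 ± 129, 5141 ± 169 and 6026 ± 192 in SIRT1 KD, IGF2BP2 KD and Double KD cells, against 4192 ± 68.5 in Control cells (adjusted p = 0.00111, 0.00135 and 1.0e-06). PAK1, a kinase downstream of RAC1, rose in all 3 by 0.42, 0.36 and 0.94 on the log2 scale. RHOA, the GTPase that drives stress fibres, fell in IGF2BP2 KD and Double KD cells, to 8832 ± 295 and 9420.2 ± 919.9, against 15953 ± 87.3 in Control cells, and had 0.0002 in SIRT1 KD cells (95% interval -0.14 to 0.15). The scaffold NEDD9 fell in SIRT1 KD and Double KD cells by 0.38 and 1.01 and rose in IGF2BP2 KD cells by 0.42 (adjusted p = 0.00286, 7.9e-08 and 0.003).

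Of 15 membrane partners of integrins, 1 rose and 1 fell in SIRT1 KD, 0 rose and 3 fell in IGF2BP2 KD, and 2 rose and 3 fell in Double KD cells, with 28.6%, 16.3% and 34.2% of all genes called in the same comparisons. The tetraspanin CD82 fell in all 3, to 1858 ± 112, 1757 ± 133 and 1399.9 ± 235 in SIRT1 KD, IGF2BP2 KD and Double KD cells, against 2471 ± 80.4 in Control cells, and its SIRT1 KD call was lost on the authors' log2 ratios (adjusted p = 0.0569). MET, the receptor of hepatocyte growth factor and a partner of ITGB4, rose in SIRT1 KD and Double KD cells by 0.33 and 0.47. PLAUR, the urokinase receptor, fell in IGF2BP2 KD cells by 0.50 (adjusted p = 0.00116), and SLC3A2, the CD98 heavy chain that binds beta chains, fell in Double KD cells by 0.42 (adjusted p = 0.00333). Without Double KD replicate 2 the calls in this list were 3 higher and 1 lower in SIRT1 KD, 0 and 5 in IGF2BP2 KD, and 2 and 4 in Double KD cells.

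ITGA6 with ITGB4 anchors keratin at hemidesmosomes, and 3 of 5 other hemidesmosome genes were tested. COL17A1, a transmembrane collagen of that structure, rose in all 3 groups, to 205 ± 12.01, 191 ± 29.04 and 389.7 ± 10.2 in SIRT1 KD, IGF2BP2 KD and Double KD cells, against 131 ± 9.55 in Control cells (adjusted p = 2.3e-04, 0.00257 and 5.0e-09). PLEC, plectin, which binds the ITGB4 tail, rose in Double KD cells (log2 fold change 0.38, adjusted p = 0.0107). Its spread was wide, at 78189 ± 17759.6 against 59086 ± 2367 in Control cells. From lowest to highest its Double KD libraries were at 67288, 68597 and 98682, so 1 library made much of the rise. The call was lost with no filter on low counts or with only the 2 groups in the fit (adjusted p up to 0.125). Of the 3 tested, 1 rose and 0 fell in SIRT1 KD, 1 and 0 in IGF2BP2 KD, and 2 and 0 in Double KD cells. The shares of all genes called were 28.6%, 16.3% and 34.2%. When Double KD replicate 2 was left out, 2 rose and 0 fell in SIRT1 KD, 2 and 0 in IGF2BP2 KD, and 2 and 0 in Double KD cells. DST had -0.08, 0.13 and 0.05 in SIRT1 KD, IGF2BP2 KD and Double KD cells and did not pass. In the fit of all 12 libraries, ITGA6 and ITGB4 themselves did not pass in any comparison with Control.

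Of 20 tested genes of integrin uptake and recycling, 3 rose and 4 fell in SIRT1 KD, 2 rose and 4 fell in IGF2BP2 KD, and 5 rose and 10 fell in Double KD cells (medians 0.03, -0.05 and -0.19), with 28.6%, 16.3% and 34.2% of all genes called. EHD1, which drives recycling from endosomes, rose in all 3 groups, to 8196 ± 286, 9932 ± 193 and 13272 ± 1039 in SIRT1 KD, IGF2BP2 KD and Double KD cells, against 6019 ± 159.9 in Control cells. RAB21, a GTPase that binds alpha chains and takes integrins into early endosomes, fell in SIRT1 KD and Double KD cells by 0.77 and 0.88 on the log2 scale and had -0.27 in IGF2BP2 KD cells (adjusted p = 0.0774). VPS26A, a retromer subunit, fell in SIRT1 KD and Double KD cells by 1.00 and 0.94, and RAB11FIP1, a recycling adaptor, by 0.59 and 0.30. Without Double KD replicate 2, 6 genes of this list rose and 10 fell in Double KD cells.

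Among the 10 subunits ITGA2 had the lowest p in the F test over the 4 groups. The 5 genes whose 4 group means lay closest to its own, each centred on its mean over the groups, were NUAK1, HSP90B1, GLB1L2, SUMO3 and RAD21. Their root mean square difference from ITGA2 was 0.022 to 0.0346 on the log2 scale over 4 group means. The 5 were picked as the closest among the tested genes, so small differences follow from the choice and are no evidence of a shared function. HSP90B1, the endoplasmic reticulum chaperone GRP94 that folds integrins, was at 14449.6 normalised counts in SIRT1 KD, 16877 in IGF2BP2 KD and 10542 in Double KD cells, against 21562 in Control cells. The kinase NUAK1 was at 1465, 1701 and 1071 in the same knockdown groups, against 2191 in Control cells.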

How the data were processed

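RNA-seq of 12 libraries was analysed. Per the submitters' processing notes, which give no versions, the tools were CASAVA, STAR and DESeq2 and the build was GRCh38.p13. The deposited signal values are gene counts that the authors divided by 1 size factor per library, and 100% of them came back as whole reads within a tolerance of 0.001 reads. The authors also deposited log2 ratios to Control for 15209 protein-coding genes. The column codes C, IMP and SM were read by their letters, and K was taken as SIRT1 KD by elimination. Over 10363 genes each column was set against the ratio table, whose columns name the groups. The SD of the difference was at most 0.0030 for the same library and at least 0.0973 for others. A further 12 columns without names were not used.

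Genes with enough recovered reads (edgeR filterByExpr, minimum count 10) were tested with limma 3.58.1 in R 4.3.3 (trend and robust options) on log2(normalised count + 1), with 4 group means over 12 libraries and Benjamini-Hochberg adjustment over 17576 genes. This unit does not suit a count test as the main result, so edgeR 4.0.16 and DESeq2 1.42.0 on recovered reads were alternatives, beside 7 other settings and 12 fits that each left out a library. The fitting code was tested on simulated data. Ratios were compared by exact permutation with scipy 1.17.1. Tables and figures were made in Python 3.11.15 with pandas 2.3.3, numpy 2.4.6 and matplotlib 3.10.9. Levels per kb, coordinates and 3′ UTRs came from GENCODE 29 (GRCh38).

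The members and the 8 pathway and 5 marker lists were chosen with earlier results of these data known. Named genes were all members, both targets, up to 4 genes per pathway list with the lowest adjusted p over the 3 comparisons with Control, and the 5 genes nearest to the subunit with the lowest p in the F test. Marker genes, the alpha chains that pair with ITGB2, a ligand given as an example (ICAM1) and genes that overlap a member lie outside this rule and were chosen after their values were seen.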

Additional observations from a re-analysis of the deposited data

Results flagged for a closer look

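For ITGA5 the SIRT1 KD effect differed between cells with and without the IGF2BP2 hairpin. The difference of the effects, the interaction term of the limma fit, was 0.51 on the log2 scale (SE 0.10, adjusted p = 0.00974), with ITGA5 lower by the SIRT1 hairpin in both settings: -0.26 in Double KD against IGF2BP2 KD cells and -0.77 in SIRT1 KD against Control cells.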

How the results depend on the processing

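Of the alternative fold changes of the subunits, 1141 kept their direction and their side of the threshold, 44 lost the threshold, 33 gained it and 32 reversed, and every reversal was of a value that had not passed. With only the 2 groups in the fit, 5 subunits were called in IGF2BP2 KD and 3 in Double KD against SIRT1 KD, and the counts of all genes were 7784 in SIRT1 KD and 5122 in IGF2BP2 KD against Control, 2251 in Double KD against SIRT1 KD and 3640 in Double KD against IGF2BP2 KD. The interaction could not be run that way. On the authors' log2 ratios, 3 subunits were called in Double KD against SIRT1 KD and 0 in the interaction (74 of all genes), ITGB4 was at 0.016 in Double KD against Control and ITGAV at 0.017 in Double KD against IGF2BP2 KD. In the interaction, 2 subunits were called with a pseudocount of 5 and 2 with DESeq2 (926 of all genes), and ITGB1 was at -0.0087 with TMM scaling, -0.0037 with edgeR and -0.00061 with DESeq2. The cause of these shifts was not tested.

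Fits that left out 1 library called 3 to 8 subunits in SIRT1 KD, 3 to 7 in Double KD against SIRT1 KD and 1 to 5 in the interaction. They called 1860 to 5028 of all genes in IGF2BP2 KD and 116 to 1765 in the interaction. Fold changes whose sign turned were near 0 in the fit of all 12 libraries. They ranged over -0.0045 to 0.10 for ITGB2 in SIRT1 KD. In IGF2BP2 KD the range was widest for ITGB3, -0.21 to 0.043 around -0.04 with all libraries. There it was -0.068 to 0.013 for ITGB4 and -0.0066 to 0.048 for ITGB5. In Double KD it was -0.00068 to 0.080 for ITGA6 and -0.061 to 0.061 for ITGB4. Against IGF2BP2 KD, Double KD ranged over -0.063 to 0.038 for ITGAV and -0.043 to 0.079 for ITGB4. The interaction ranged over -0.089 to 0.0070 for ITGA2 and -0.061 to 0.091 for ITGB1. The ratio ITGB3 over ITGB5 had differences of -0.20 to 0.029 for IGF2BP2 KD cells and of -0.36 to 0.0017 for Double KD cells, and ITGB4 over ITGA6 over -0.016 to 0.050 in SIRT1 KD.

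Deviations from the group mean were correlated between same-numbered libraries of different groups. The correlations were -0.394 to 0.351 over 18 pairs, 7 of them over 0.1. The 3 deviations of a group sum to 0 for each gene, so this check can neither show nor exclude a pairing by number. With a replicate block, 7, 4 and 7 subunits were called in SIRT1 KD, IGF2BP2 KD and Double KD against Control, 5 and 7 in Double KD against SIRT1 KD and IGF2BP2 KD, and 1 in the interaction. With 3 libraries a group, small fold changes such as those of ITGB1, ITGA6 and ITGB4 lie near the limit of what the test can call, and ITGB2, with 91.0 normalised counts in its lowest library, is the least deeply counted subunit.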
